A study of Mus musculus with 12 samples.

Results

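Tissue macrophage genes were followed across hearts and kidneys of mice with and without mENT1, the equilibrative nucleoside transporter encoded by Slc29a1. The 9 genes were Adgre1 (named Emr1 on the array), Mrc1, Vsig4, Cd68, Cd163, Csf1r, C1qa, C1qb and Itgam, chosen by name, and they were read by 13 of 41174 probes, or 9 of 27670 genes. The 4 groups were mENT1 knockout (KO) heart, wild type (WT) heart, KO kidney and WT kidney, with 3 arrays each, named a, b and c. Per the labels, both genotypes are of the FVB/N strain. The design text gives 3 KO and 3 WT mice. The labels give no age, no sex and no account of how the knockout allele was made, and nothing ties a heart to a kidney of the same mouse. Total RNA of each sample was labelled with Cy3 and hybridised to 1 Agilent mouse array. The genes were brought together with earlier results of these arrays known, so the KO against WT values describe these genes and were not used as support for anything.

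Macrophages are phagocytes that live in nearly every organ. In heart and kidney they arise partly from embryonic precursors and partly from blood monocytes, and they clear dying cells, debris and immune complexes. Their survival depends on CSF1R, the receptor for the growth factors CSF1 and IL-34, and their identity depends on the transcription factor PU.1, encoded by Spi1. ADGRE1 (F4/80) is the classical surface marker of mouse macrophages and MRC1 is the mannose receptor. VSIG4 (CRIg) is a receptor for complement C3 fragments and CD163 takes up haemoglobin bound to haptoglobin. CD68 is a glycoprotein of late endosomes and lysosomes. C1qa and C1qb encode chains of C1q, the recognition unit of the classical complement pathway, which tissue macrophages make in large part. ITGAM (CD11b) pairs with ITGB2 to form complement receptor 3 and is also carried by monocytes and neutrophils.

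The sequences of 4 probes are shown because they define what was measured for the genes whose values are set against each other below. They are given 5′ to 3′ in lower case, with positions in build mm7 as the files give them. The Vsig4 probe lies at chrX:91575173-91575232 on the minus strand and is the only probe of that gene. The second Adgre1 probe, which was near background in kidney, lies at chr17:55613754-55613813 on the plus strand. The C1qa probe lies at chr4:136274931-136274990 and the C1qb probe at chr4:136259100-136259159, both on the minus strand. No 2 probes of different genes among the 9 shared a run of more than 8 bases out of 60. Which exon each probe reads was not analysed here.
Vsig4 probe: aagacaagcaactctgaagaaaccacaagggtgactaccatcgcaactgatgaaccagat
Adgre1 second probe: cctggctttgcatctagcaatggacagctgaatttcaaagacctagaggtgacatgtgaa
C1qa probe: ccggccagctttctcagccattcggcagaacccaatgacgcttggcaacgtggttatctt
C1qb probe: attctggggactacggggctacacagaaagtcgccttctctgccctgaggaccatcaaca

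Promoters are shown for Vsig4, Mrc1 and Cd163, the genes with promoter sequence that differed most between KO and WT kidney, and for C1qb, which differed least among those whose kidney groups did not overlap. Each runs from 250 bases before to 50 bases after the annotated start, from RefSeq on GRCm38.p6, and 6 of the 9 genes had an entry. The capitals mark GAGGAA, the core bound by PU.1, or its reverse complement TTCCTC. The Vsig4 promoter lies at chrX:96293389-96293688 on the minus strand, that of Mrc1 at chr2:14229164-14229463 on the plus strand, that of Cd163 at chr6:124304401-124304700 on the plus strand and that of C1qb at chr4:136886151-136886450 on the minus strand.
Vsig4 promoter: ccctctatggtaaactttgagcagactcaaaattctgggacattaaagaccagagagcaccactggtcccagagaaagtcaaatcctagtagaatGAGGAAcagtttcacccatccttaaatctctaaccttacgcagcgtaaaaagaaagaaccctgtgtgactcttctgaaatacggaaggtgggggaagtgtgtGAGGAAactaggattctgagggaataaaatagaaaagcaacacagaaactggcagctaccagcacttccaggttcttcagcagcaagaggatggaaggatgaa
Mrc1 promoter: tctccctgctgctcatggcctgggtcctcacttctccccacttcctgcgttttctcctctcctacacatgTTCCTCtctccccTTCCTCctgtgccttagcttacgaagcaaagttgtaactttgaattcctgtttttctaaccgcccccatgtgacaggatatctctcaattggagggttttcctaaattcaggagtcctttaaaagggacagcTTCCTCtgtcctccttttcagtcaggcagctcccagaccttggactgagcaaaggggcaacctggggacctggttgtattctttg
Cd163 promoter: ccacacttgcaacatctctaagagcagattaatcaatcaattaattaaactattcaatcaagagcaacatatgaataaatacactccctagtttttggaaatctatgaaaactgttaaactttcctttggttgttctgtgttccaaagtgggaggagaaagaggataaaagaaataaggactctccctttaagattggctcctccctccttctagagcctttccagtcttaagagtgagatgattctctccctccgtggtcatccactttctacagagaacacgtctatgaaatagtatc
C1qb promoter: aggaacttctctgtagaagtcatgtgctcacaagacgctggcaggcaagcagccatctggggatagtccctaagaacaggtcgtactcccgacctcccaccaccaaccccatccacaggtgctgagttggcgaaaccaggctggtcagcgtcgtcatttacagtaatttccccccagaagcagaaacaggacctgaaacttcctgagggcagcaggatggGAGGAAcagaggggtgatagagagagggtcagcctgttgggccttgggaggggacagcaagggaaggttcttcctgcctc
The motif was found in 5 of the 6 promoters, those of C1qb, Cd68, Itgam, Mrc1 and Vsig4, and in 28.3% of all 32851 promoters. The AP-1 motif TGANTCA was in 1 of the 6, that of Cd68, against 7.81% of all promoters, and the C/EBP motif TTGCNNAA was in the same 1, against 10.8%. The motifs were searched on both strands, and a match describes these letters only.

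Values below are log2 signals with the 75th percentile of each array at 0, so that levels of 1 probe can be compared between arrays but levels of different probes cannot. Changes are KO minus WT with the standard error (SE) of a limma fit across all genes tested, and a gene is called changed at a Benjamini-Hochberg adjusted p under 0.05. That percentile stood at 464.5 to 940.4 intensity units, and 157 to 331 spots per array were saturated, none of them a spot of the 13 probes. Slc29a1, the targeted gene, lay between 0.59 and 1.53 in KO hearts and between 3.15 and 3.36 in WT hearts. It lay between -1.43 and -1.3 in KO kidneys and between 1.27 and 1.62 in WT kidneys. The authors' processed table carries the genotype labels the other way round, so every KO against WT direction here rests on the labels of the scanner files, which Slc29a1 fits. All 8 heart muscle markers, such as Myh6, were above background in every heart and all 8 kidney tubule markers, such as Umod, in every kidney.

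Several arrays stood apart from the others of their group before any macrophage gene was considered. KO hearts a and b had summed signals of 134 and 278 for 15 T cell and thymocyte genes, against 2.9 in KO heart c and 1.94 to 3.13 in WT hearts. KO heart a had a summed signal of 218 for a list of 11 lung genes. The sum was 1.89 and 5.96 in KO hearts b and c and 1.15 to 3.77 in WT hearts. In KO heart a it was led by the surfactant and airway epithelial genes Sftpc and Scgb1a1, which are no macrophage genes. The lung list also held macrophage genes such as Marco, which is in the complement and phagocytosis list too. KO hearts a and b and KO kidney a also carried Xist signal, from 1.21 to 1.7, and had 0 of 4 Y-linked genes above background, while all other arrays had Xist at or below -7.97 and 4 of 4 Y-linked genes. Since 2 of 3 KO hearts but 1 of 3 KO kidneys carried it, the KO hearts and KO kidneys cannot all have come from the same 3 mice. KO heart and slide were tied, since the 3 WT hearts lay on a slide of their own, so genotype and slide cannot be told apart in heart. Within either genotype no heart shared a slide with a kidney. Tissue and slide therefore cannot be told apart in the heart against kidney comparisons. Vsig4 is on the X chromosome. Adgre1 is on chromosome 17, with its probes 12 and 11.9 megabases from that of Slc29a1.

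The 9 genes were more highly expressed in heart than in kidney. In WT mice all 9 were called higher in heart, where 34.1% of 17972 genes tested were called higher, and the median difference was 2.71 against 0.066 over all genes. The differences ran from 1.36 ± 0.17 for Csf1r (2.56-fold, adjusted p = 0.000314, limma, n = 3 each) to 6.61 ± 0.33 for Vsig4 (97.5-fold, adjusted p = 2.58e-06). Vsig4 was at 1.48, 1.82 and 0.73 in WT hearts, against -4.75, -5.58 and -5.47 in WT kidneys. Cd163 differed by 4.17 ± 0.28 (18.1-fold), C1qb by 3.27 ± 0.25 (9.68-fold) and C1qa by 3.11 ± 0.24 (8.62-fold). The hearts and kidneys of WT mice did not overlap for any of the 9, where 37.4% of all genes were higher in heart without overlap. Several lists of other cell types were higher in WT heart too. All 10 endothelial genes (median 2.32), 8 of 8 fibroblast and matrix genes (median 2.95), 7 of 7 B cell genes (median 2) and 9 of 10 neutrophil genes (median 2.41) were called higher. Other lists were mixed or lower. Of 11 T cell genes 6 were called higher and 2 lower (median 0.79), and of 8 monocyte genes 5 higher and 3 lower (median 1.68). Of 8 adipocyte genes 7 had lower means and 0 were called (median -1.25). The part of cell content in the heart and kidney values was not tested, and slide cannot be told apart from tissue in them.

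In KO mice 8 of the 9 were called higher in heart than in kidney, where 29.4% of 18159 genes were called higher, and the median difference was 3.17 against 0.107. Vsig4 was not well above background in any KO kidney and was therefore at least 111-fold higher in KO heart, with measured means of -0.13 in KO hearts and -7.3 in KO kidneys (adjusted p = 4.66e-05, limma). Csf1r was the exception. It was at 1.68, 1.82 and 2.19 in KO hearts and 1.83, 1.39 and 1.49 in KO kidneys, and the groups overlapped (0.33 ± 0.22, adjusted p = 0.248, limma). With only the KO arrays that lacked Xist signal the Csf1r difference was 0.75 (adjusted p = 0.0274), in a fit with 1 heart that is assumed to vary like the 2 kidneys. Scaling arrays to the median of all probes gave -0.01 and the mean of its probes gave -0.15, so its direction depended on the scaling and on the probe.

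**Figure D1:**
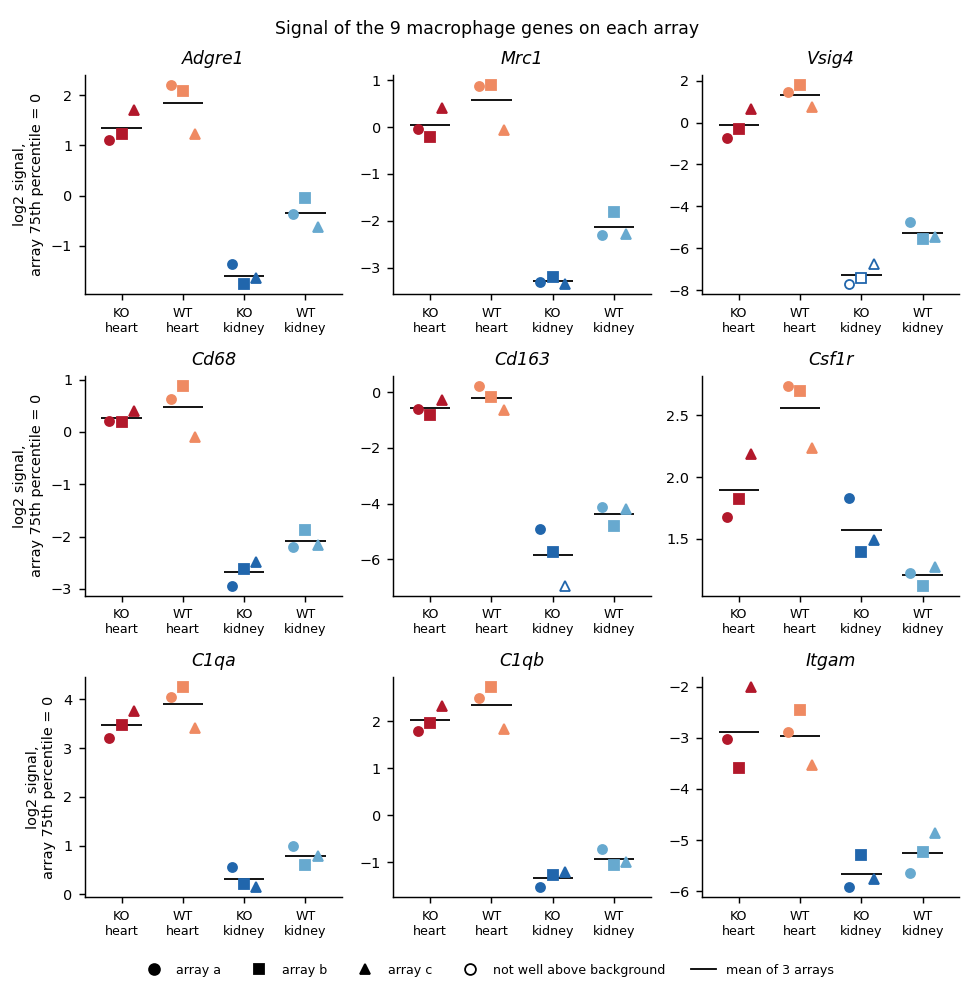
Log2 signal (vertical axis, 75th percentile of the array at 0) of the 9 macrophage genes on each of the 12 arrays, by group, with the mean of 3 arrays as a line and open symbols where the probe was not well above background. Hearts lie above kidneys for 8 genes in both genotypes, KO kidneys lie below WT kidneys without overlap for 7 genes, and Csf1r alone lies higher in KO than in WT kidneys.

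In kidney, 8 of the 9 genes had lower means in KO than in WT, and Csf1r had a higher one. Of the 9, 7 were lower in KO kidney without overlap between the groups, where 12.5% of 17217 genes were, and Csf1r was higher without overlap, where 8.71% were. None of the 9 was called at an adjusted p under 0.05, where 0.116% of all genes were, and 6 had an unadjusted p under 0.05, all lower, where 7.46% of all genes did so in that direction. Their median change was -0.6, against -0.07 over all genes. In whole tissue, fewer macrophages and less RNA of these genes per macrophage cannot be told apart.

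Vsig4, Cd163, Adgre1 and Mrc1 had the largest kidney differences of the 9. Adgre1, the F4/80 gene, was at -1.37, -1.77 and -1.65 in KO kidneys, against -0.36, -0.04 and -0.63 in WT kidneys. All 3 KO kidneys lay below all 3 WT kidneys, and the change was -1.26 ± 0.21 (2.39-fold lower, adjusted p = 0.0826, limma, n = 3 each). Mrc1, the mannose receptor, was at -3.3, -3.21 and -3.36 in KO kidneys, against -2.31, -1.81 and -2.28 in WT kidneys. The KO kidneys lay close together (SD 0.07, against 0.28 in WT kidneys), with no overlap, and the change was -1.16 ± 0.19 (2.23-fold lower, adjusted p = 0.0764, limma).

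Vsig4, the C3 fragment receptor, was at -7.73, -7.42 and -6.74 in KO kidneys, all not well above background, against -4.75, -5.58 and -5.47 in WT kidneys, all above it. This makes it at least 3.17-fold lower in KO kidney, with measured means of -7.3 in KO and -5.26 in WT (change -2.03 ± 0.33, adjusted p = 0.0775, limma), and it entered the test through the WT kidneys alone. Cd163, the haemoglobin scavenger, was at -4.9, -5.72 and -6.95 in KO kidneys, the last of these not well above background, against -4.11, -4.8 and -4.21 in WT kidneys. The KO kidneys were below the WT kidneys, but they were widely spread (SD 1.03, against 0.37 in WT kidneys), and the change was -1.48 ± 0.51 (adjusted p = 0.283, limma).

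The slide moved the calls for Adgre1, Mrc1 and Vsig4 in kidney. KO kidneys b and c and WT kidneys a and b shared a slide, and within it Adgre1 differed by -1.51 (adjusted p = 0.043, limma), Mrc1 by -1.23 (adjusted p = 0.0704) and Vsig4 by -1.92 (adjusted p = 0.0718). With slide as a fixed block Adgre1 was called (-1.51, adjusted p = 0.0376) and the other 2 were not. The differences in that fit rest on the same 2 KO and 2 WT kidneys. KO kidney a and WT kidney c were each the only kidney on their slide. With slide as a random block all 3 were called, with adjusted p of 0.038 for Adgre1, 0.045 for Mrc1 and 0.0466 for Vsig4. Calls over all genes rose in these fits too. They numbered 20 of 17217 as reported and 221 of 17642 within the slide. With the fixed block they were 273 of 17217 and with the random block 162 of 17217. Over all 21 alternatives the adjusted p ran from 0.0376 to 0.7 for Adgre1 and from 0.045 to 0.953 for Mrc1, and over the 20 in which Vsig4 was tested it ran from 0.0466 to 0.753. Without KO kidney a, the 1 kidney with Xist signal, Adgre1 differed by -1.37, Mrc1 by -1.15 and Vsig4 by -1.82. The alternatives were not all distinct, since leaving out that kidney and keeping only kidneys without Xist signal were the same fit.

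Cd68, C1qa, C1qb and Itgam differed less. Cd68, the lysosomal glycoprotein, was at -2.94, -2.62 and -2.49 in KO kidneys, against -2.2, -1.87 and -2.17 in WT kidneys (-0.6 ± 0.19, adjusted p = 0.249, limma). C1qa was at 0.57, 0.22 and 0.15 in KO kidneys, against 1, 0.61 and 0.78 in WT kidneys (-0.48 ± 0.19, adjusted p = 0.344, limma). For both genes the highest KO kidney lay just under the lowest WT kidney. C1qb, whose gene lies beside C1qa and C1qc on chromosome 4, changed by -0.42 ± 0.18 (adjusted p = 0.388, limma), and its groups did not overlap either. Itgam was at -5.92, -5.29 and -5.77 in KO kidneys, against -5.64, -5.23 and -4.86 in WT kidneys, with overlap (-0.41 ± 0.26, adjusted p = 0.555, limma).

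Csf1r, the receptor that sustains macrophages, had the opposite sign in kidney. It was at 1.83, 1.39 and 1.49 in KO kidneys, against 1.22, 1.12 and 1.27 in WT kidneys, a change of 0.37 ± 0.17 (1.29-fold, adjusted p = 0.437, limma, n = 3 each). Its dim probe had means of -4.6 in KO kidneys and -5.7 in WT kidneys, a difference of 1.09, and its other probe had 0.06 in KO and -0.48 in WT, a difference of 0.54. All 3 probes thus had higher means in KO kidney, and for each of them every KO kidney lay above every WT kidney. KO kidney a was the highest kidney for all 3 probes, and without it the first probe differed by 0.23.

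**Figure D2:**
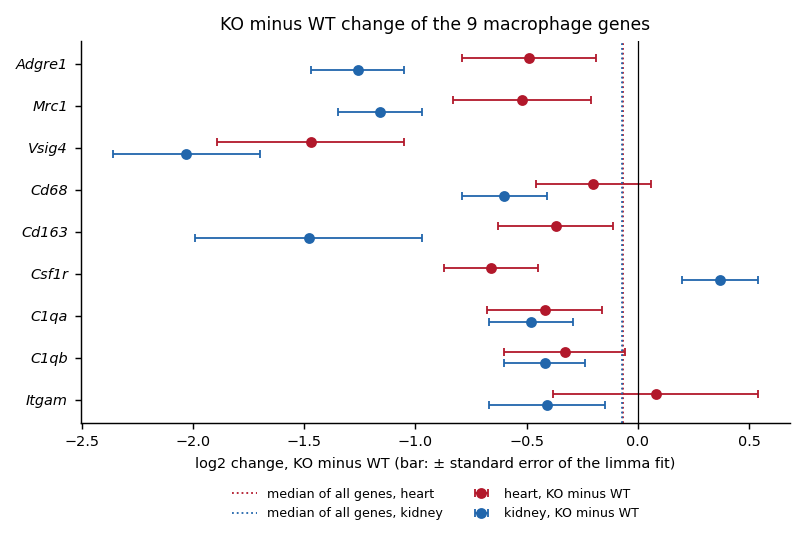
Log2 change, KO minus WT (horizontal axis), of the 9 genes in heart (red, upper point of each pair) and kidney (blue, lower point), with bars of ± 1 SE of the limma fit and dotted lines at the median change of all genes. The changes run from -1.47 to 0.08 in heart and from -2.03 to 0.37 in kidney, and Csf1r is the gene with opposite signs that do not reach 0 within 1 SE.

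In heart, 8 of the 9 genes also had lower means in KO than in WT, but the groups overlapped for 7 genes. Of the 9, 2 were lower in KO heart without overlap, Vsig4 and Csf1r, where 13% of 17457 genes were. None was called, where 0.664% of all genes were, 2 had an unadjusted p under 0.05, where 8.43% of all genes did so and were lower, and the median change was -0.42 against -0.069 over all genes. Vsig4 was at -0.73, -0.3 and 0.64 in KO hearts, against 1.48, 1.82 and 0.73 in WT hearts (-1.47 ± 0.42, 2.78-fold lower, adjusted p = 0.237, limma, n = 3 each). Csf1r was at 1.68, 1.82 and 2.19 in KO hearts, against 2.74, 2.7 and 2.24 in WT hearts (-0.66 ± 0.21, 1.59-fold lower, adjusted p = 0.257, limma). For both genes KO heart c and WT heart c were nearly level, at 0.64 and 0.73 for Vsig4 and at 2.19 and 2.24 for Csf1r.

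The c arrays stood apart within both genotypes. KO heart c was the highest KO heart for 9 of 9 genes and WT heart c the lowest WT heart for 9 of 9. Adgre1 was at 1.11, 1.22 and 1.7 in KO hearts, against 2.21, 2.08 and 1.23 in WT hearts (-0.49 ± 0.3, adjusted p = 0.425, limma). C1qa was at 3.21, 3.48 and 3.76 in KO hearts, against 4.05, 4.25 and 3.42 in WT hearts (-0.42 ± 0.26, adjusted p = 0.427, limma). In both, KO hearts a and b lay below WT hearts a and b, and the c arrays were in the reverse order. Mrc1 (-0.52 ± 0.31), Cd163 (-0.37 ± 0.26), C1qb (-0.33 ± 0.27), Cd68 (-0.2 ± 0.26) and Itgam (0.08 ± 0.46) had the same order of arrays.

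The heart values therefore turned on which arrays entered. Without KO heart c all 9 genes had lower means in KO heart and the median was -0.56. Vsig4 was then called (-1.86, adjusted p = 0.0307, limma), 1 of the 9, where 2248 of 18210 genes were called. With KO heart c alone against the 3 WT hearts, which leaves out both hearts with Xist and T cell signal, the median was -0.13, Vsig4 differed by -0.7, Csf1r by -0.37 and Itgam by 0.95. No p is given for these, since the single KO heart has no spread of its own. Without WT heart c the median was -0.67 and 0 of the 9 were called. The part of the T cell, lung or Xist-linked signal in these values was not tested, and KO hearts a and b, which carry it, were the 2 lowest KO hearts for all 9 genes.

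A second probe was present for Adgre1 and Itgam and 2 more for Csf1r. The second Adgre1 probe had means of -4.36 in KO hearts and -3.48 in WT hearts, a difference of -0.88 of the same sign as the first probe. In kidney the second Adgre1 probe was at -6.34 in KO and -6.56 in WT, a difference of 0.21, but it was above background on 2 of 3 KO and 1 of 3 WT kidneys, so it holds little information there. The second Itgam probe was above background on 1 of 3 KO kidneys and 0 of 3 WT kidneys, and in heart it differed by -0.34, against 0.08 for the first. All 3 Csf1r probes had lower means in KO heart, by -0.66, -0.53 and -0.84.

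**Figure D3:**
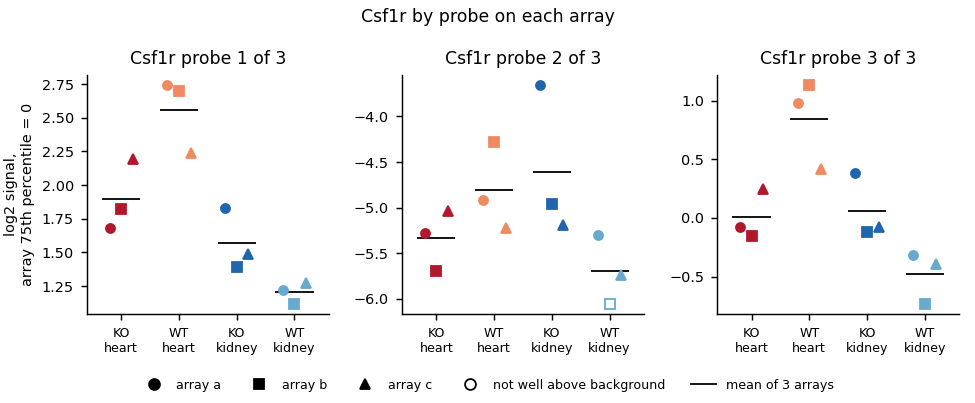
Log2 signal (vertical axis, 75th percentile of the array at 0) of the 3 Csf1r probes on each array, by group, with group means as lines and an open symbol where a probe was not well above background. On all 3 probes the mean is lower in KO than in WT hearts and higher in KO than in WT kidneys.

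Whether the KO minus WT change differed between the tissues was tested in a fit of all 12 arrays. None of the 9 genes was called for this difference, where 0.633% of 18495 genes were, and 1 had an unadjusted p under 0.05 and a lower change in heart, where 6.05% of all genes did. That gene was Csf1r, whose heart change was lower than its kidney change by 1.03 ± 0.27 on the log2 scale (heart minus kidney -1.03, unadjusted p = 0.00347, adjusted p = 0.15, limma, n = 3 each). Without KO heart c the Csf1r difference was -1.18 and was called (adjusted p = 0.0266, limma), where 1491 of 18982 genes were called. Over 24 alternatives it lay between -1.34 and -0.6 with adjusted p of 0.0266 to 0.757. With slide as a random block it was -1.02 (adjusted p = 0.395). For the other 8 the difference lay between 0.06 for C1qa and 1.12 for Cd163, with adjusted p of 0.397 or more.

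Pearson correlations were taken across the 6 arrays of each tissue, as a description over arrays that share genotype, slide and cell content. In heart all 36 pairs of genes had a positive r, with a median of 0.87 and a range of 0.39 to 0.99. In kidney 8 of 36 pairs had a negative r, and these were the 8 pairs with Csf1r, from -0.94 with Cd68 to -0.33 with Cd163. Csf1r had a higher mean in KO kidney and the other 8 had lower ones. These signs thus largely restate the genotype differences and say little of how the genes vary within a group. Adgre1 and Mrc1 reached an r of 0.97 in kidney. The 5 other genes closest to the mean of the 9 were Naip2, Zfp948, Lrp1, Arl11 and Colec12 in heart, with r of 0.9915 to 0.9972 over 6 arrays. In kidney they were Kif20a, Slc29a1 itself, BC023719, Cd34 and Itgal, with r of 0.9886 to 0.9943 over 6 arrays. Slc29a1 is the targeted gene, and 7 of the 9 genes were lower in KO kidneys without overlap. Its r there restates the genotype difference.

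**Figure D4:**
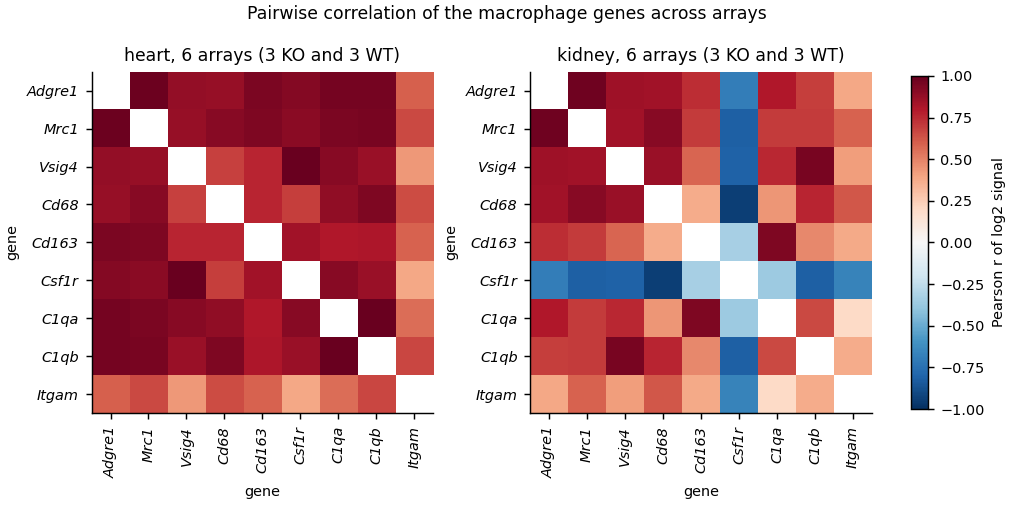
Pearson r of log2 signal between each pair of the 9 genes over the 6 arrays of heart (left) and kidney (right), red above 0 and blue below 0. All 36 pairs are positive in heart, while in kidney the 8 pairs with Csf1r are negative, where Csf1r alone has a higher mean in KO than in WT.

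The growth factors and regulators of the lineage were read beside their receptor. Csf1 was at 1.69, 1.95 and 2.21 in KO hearts, against 2.24, 2.43 and 2.46 in WT hearts (-0.43 ± 0.17, adjusted p = 0.314, limma). In kidney Csf1 differed by -0.26 ± 0.17 (adjusted p = 0.558). Il34, the other CSF1R ligand, was at 0.66, 2.84 and 3.39 in KO kidneys, against 3, 3.49 and 2.75 in WT kidneys, and only KO kidney a stood low (-0.79 ± 0.68, adjusted p = 0.65, limma). The 2 ligands had opposite tissue patterns in WT mice, with Csf1 higher in heart by 2.76 ± 0.14 (adjusted p = 2.65e-06, limma) and Il34 lower in heart (-2.83 ± 0.21, adjusted p = 1.61e-05).

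Spi1, which encodes PU.1, was at -7.12, -6.45 and -6.58 in KO kidneys, against -3.02, -7.38 and -5.66 in WT kidneys, a spread within WT larger than the change of -1.36 ± 1 (adjusted p = 0.602, limma). In heart it changed by -0.44 ± 0.29 (adjusted p = 0.45). Of the 12 growth factor and transcription factor genes, limma called 0 in either tissue, and their counts of lower means were near the shares over all genes (58.5% in kidney and 57.7% in heart). In KO kidney 8 had lower means (median -0.15, 2 lower at an unadjusted p under 0.05, where 7.46% of all genes were), and in KO heart 5 did (median 0.1, 1 lower at an unadjusted p under 0.05, where 8.43% of all genes were).

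The partners of these proteins were read next. C1qc, which encodes the remaining chain of C1q, was at -0.51, -0.25 and -0.27 in KO kidneys, against 0.5, 0.53 and 0.31 in WT kidneys, with all KO kidneys below all WT kidneys (-0.79 ± 0.16, adjusted p = 0.121, limma). In heart C1qc differed by -0.33 ± 0.27 (adjusted p = 0.52). Itgb2, the partner of Itgam and of other leukocyte integrins, was at -2.01, -1.88 and -2.05 in KO kidneys, against -1.49, -1.56 and -1.57 in WT kidneys (-0.44 ± 0.14, adjusted p = 0.26, limma). In heart Itgb2 was at 1.41, 1.63 and 0.79 in KO, against 0.6, 0.66 and 0.09 in WT, higher in KO without overlap (0.83 ± 0.27, adjusted p = 0.269, limma). Ptprc (CD45), carried by all leukocytes, was at 3.07, 3.53 and 0.7 in KO hearts, against 1.22, 0.96 and 0.37 in WT hearts (1.59 ± 0.73, adjusted p = 0.337, limma), with the 2 high values in the KO hearts of high T cell signal. For Itgb2 and Ptprc the KO hearts were higher on average and the KO kidneys lower, and no call was made for either. In kidney Ptprc was at -1.23, -0.92 and -1.28 in KO, against -0.29, 0 and -0.32 in WT (-0.94 ± 0.18, adjusted p = 0.111, limma).

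Wider macrophage lists had mostly lower means in KO kidney, and limma called none of their genes. Of 25 complement and phagocytosis genes that passed the filter in kidney, 23 had lower means in KO and 0 were called (median -0.49, 11 at an unadjusted p under 0.05), and of 16 lysosome and iron handling genes 12 were lower and 0 called (median -0.29, 5 at an unadjusted p under 0.05). Of 17 resident macrophage subset genes 14 were lower and 0 called (median -0.66, 8 lower at an unadjusted p under 0.05). All 11 macrophage chemokines and cytokines tested were lower and 0 were called (median -0.67, 5 at an unadjusted p under 0.05), against a median of -0.07 over all genes, of which 58.5% were lower and 7.46% lower at an unadjusted p under 0.05. Some of these passed the filter only through the WT kidneys. In the same kidneys, 7 of 8 fibroblast and matrix genes were lower (median -0.43, 0 called, 4 at an unadjusted p under 0.05, 5 without overlap, where 12.5% of all genes were lower without overlap) and 9 of 11 T cell genes were lower (median -0.41, 0 called, 4 at an unadjusted p under 0.05). Of the neutrophil genes 3 of 7 were lower (median 0.05, 0 called, 1 lower at an unadjusted p under 0.05), and of the endothelial genes 4 of 10 (median 0.04, 0 called, 1 lower at an unadjusted p under 0.05). The liver list had the kidney median farthest from 0 among the lists of other cell types, at 1.29 over 6 genes tested. As drawn up, it also held the Kupffer cell macrophage genes Clec4f, Cd5l and Timd4, and Timd4 was in the resident subset list too. Of its genes 0 were called, and 3 were higher without overlap and at an unadjusted p under 0.05. Of all genes, 8.71% were higher without overlap. The summed signal of the liver list was 4.78, 2.09 and 1.04 in KO kidneys, against 0.792, 1.05 and 0.961 in WT kidneys. The summed signal of the fibroblast list was 16.2 to 23.6 in KO kidneys and 21.7 to 28.7 in WT kidneys, and that of the T cell list was 5.76 to 7.83 in KO kidneys and 6.57 to 6.72 in WT kidneys. Cd8b1 alone made up most of the T cell sum in kidney. Its log2 signal was 2.4, 2.81 and 2.76 in KO kidneys and 2.49, 2.48 and 2.55 in WT kidneys. That sum therefore says little of the other T cell genes. The part of these lists in the kidney values of the macrophage genes was not tested.

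In heart the complement and phagocytosis list had a median of -0.31 over 26 genes (17 lower), against -0.069 over all genes, of which 57.7% were lower. The other medians were -0.05 for 16 lysosome and iron handling genes (10 lower), -0.01 for 20 resident subset genes (11 lower) and -0.06 for 12 chemokines and cytokines (7 lower). Among them only Trem1, a receptor that amplifies inflammatory responses of myeloid cells, was called (-1.24 ± 0.17, adjusted p = 0.0443, limma), with means of -6.88 in KO hearts and -5.64 in WT hearts. Its signal was near the floor, well above background on 1 of 3 KO hearts and 3 of 3 WT hearts, so the size of this change is uncertain. Markers of other cells differed in the same hearts. All 11 T cell genes had higher means in KO heart (median 3.76, 0 called, 11 at an unadjusted p under 0.05). The summed signal of the T cell list was high in KO hearts a and b alone. In KO heart c it was 2.9, within the range of 1.94 to 3.13 in WT hearts. In the lung list 6 of 7 tested genes had higher means (median 2.65, 0 called, 1 at an unadjusted p under 0.05). The summed signal of the lung list was high in KO heart a alone. In the liver list 7 of 8 genes had higher means and 5 were called higher, where 0.664% of all genes were called, with Cps1 at 4.58 ± 0.56 (adjusted p = 0.0321, limma, well above background on 1 of 3 WT hearts), Fabp1 at 4.05 ± 0.33 (adjusted p = 0.00716), Alb at 3.57 ± 0.44 (adjusted p = 0.0337) and Apoa2 at 3.15 ± 0.28 (adjusted p = 0.00973). The summed signal of the liver list was 3.84 to 7.19 in KO hearts and 1.01 to 1.49 in WT hearts. All 10 endothelial genes had lower means in KO heart (median -0.4, 0 called, 4 at an unadjusted p under 0.05), with a summed signal of 121 to 178 in KO hearts and 186 to 196 in WT hearts, and the part of these lists in the heart values was not tested.

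**Figure D5:**
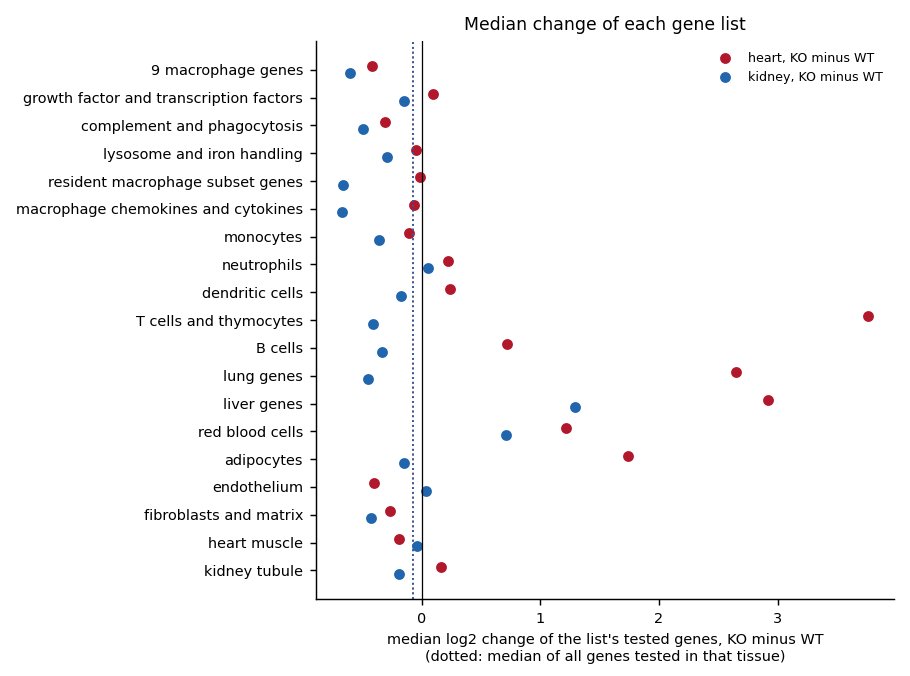
Median log2 change, KO minus WT (horizontal axis), of the tested genes of each list in heart (red) and kidney (blue), with dotted lines at the median of all genes tested. The 9 macrophage genes lie at -0.42 in heart and -0.6 in kidney, and the T cell list lies at 3.76 in heart. That list was high in KO hearts a and b alone. The lists of lung genes and liver genes also hold some macrophage genes.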

How the data were processed

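RNA of 12 samples was read on 12 single-dye Agilent arrays. The deposited scanner files give each spot's intensity. Their file headers name Feature Extraction version 9.5.3.1, and the submitters' processing notes name 9.1. The processed signal is background-subtracted and not scaled between arrays, per the file headers. The authors also deposited a table of log2 values, centred per probe within each tissue, with column medians of -0.176 to 0.199. Each column matched a scanner file labelled with the opposite genotype (r of 0.9999 or more across probes), and its scaling is not given in the sources used here. The scanner labels were kept because Slc29a1 is lower on the KO arrays, and every direction rests on that.

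The analysis took log2 of the processed signal minus the 75th percentile of each array, left out spots marked as outliers, averaged spots of a probe and let the probe with the highest mean over 12 arrays stand for its gene. A gene entered the test if some group had its probe well above background 3 times out of 3. Fits used limma 3.58.1 in R 4.3.3 with p-values adjusted by the Benjamini-Hochberg method over all genes tested, and were checked on simulated data. The smallest two-sided p of an exact permutation test of 3 against 3 arrays is 0.1, and no such test was used. The number of arrays limits the precision, and no 2 arrays were copies of each other. Where a group was not well above background on any array, the fold is a bound against the lowest signal well above background.

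The genes and lists were chosen with earlier results of these data known. Named were all 9 genes with every probe, Slc29a1, Csf1, Il34, C1qc, Itgb2, Spi1 and Ptprc, list genes that were called (up to 4 per direction) and the 5 genes most like the mean of the 9 in each tissue. The sequences come from the files and from RefSeq.

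The letters a, b and c are shared between groups. Deviations of same-letter arrays from their group means correlated at 0.39, 0.21 and 0.27 between KO and WT hearts. Between KO and WT kidneys they correlated at 0.13, 0.02 and -0.14. The reported fits held no term for the letter in either tissue, so the heart values are unpaired. A fit with the letter as a block was run only as an alternative. Any pairing in heart is read from the data, since the labels do not state what a letter marks. Alternatives covered background correction, scaling, filters, probes, letter, slide, Xist signal and single arrays left out.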

Additional observations from a re-analysis of the deposited data

Results flagged for a closer look

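Csf1r was picked out because its KO minus WT change ran in opposite directions in the tissues, with no overlap between the groups in either. The difference of the heart change from the kidney change was -1.03 ± 0.27 (log2, limma, adjusted p = 0.15), so it did not pass the test over all genes. In heart all 3 KO arrays lay below all 3 WT arrays (means 1.89 in KO and 2.56 in WT), and in kidney all 3 KO arrays lay above all 3 WT arrays (means 1.57 in KO and 1.2 in WT). With only the arrays that lacked Xist signal the difference was -0.6 (adjusted p = 0.493), in a fit with 1 KO heart that is assumed to vary like the other groups.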

How the results depend on the processing

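Of the 9 genes, 0 were called for KO against WT in kidney, against 1 with slide as a fixed block, 1 within the slide that holds both genotypes and 3 with slide as a random block. Over all genes the calls, in the same order, were 20, 273, 221 and 162. The fixed block and the fit within the slide rest on the same kidneys. In heart the count among the 9 was 0, and 0 to 1 with an array left out (1 without KO heart c, where 2248 of 18210 genes were called). For the heart minus kidney change the count among the 9 was 0, and 0 to 1 with an array left out (1 without KO heart c, where 1491 of 18982 genes were called). For heart against kidney in KO the count among the 9 was 8, and 3 under normexp background correction, where 9719 and 3160 of 18159 genes were called.

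Normexp failed on 1 array. KO kidney c had 7 spots with a local background over 2 times the array's median, the lowest mean minus local background there was -65318, and its 1st percentile and median of the corrected log2 signal came to -0.53 and -0.5, where the other 11 arrays had medians of -3.1 to -2.6. Under it KO minus WT in kidney turned for Vsig4 (0.51), Cd68 (0.1), Cd163 (0.51) and Itgam (0.69), and heart minus kidney change turned for Mrc1 (-0.38), Vsig4 (-1.94), Cd68 (-0.35), Cd163 (-0.86), C1qb (-0.23) and Itgam (-0.65). Leaving out these spots, an alternative chosen after seeing the data, gave a median of -2.9 for that array, all 9 kidney directions as reported (Vsig4 -0.46, Cd163 -0.46), and turned only the heart minus kidney change of Vsig4 (-0.97).

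The cause of the other reversals was not tested, nor was that of the calls that changed with slide or a left-out array. Itgam in heart (0.08) was -0.08 with median scaling, -0.06 with quantile normalization, -0.13 with the mean of its probes and -0.36 to 0.44 with an array left out. Cd68 in heart was -0.49 to 0.00039 with an array left out. The heart minus kidney change was -0.15 for C1qa and -0.13 for C1qb with median scaling, -0.17 for Adgre1 (0.76 as reported) and -0.05 for Itgam (0.49 as reported) with the mean of probes, and -0.18 to 0.23 for C1qa and -0.17 to 0.27 for C1qb with an array left out. Csf1r in KO heart minus kidney was -0.01 with median scaling and -0.15 with the mean of probes. With the letter as a replicate block 0 of the 9 genes were called in heart and 0 in kidney, and the paired fit in heart changed no call among them. It called 80 genes in heart (116 without), 2 in kidney (20 without) and 55 for the heart minus kidney change (117 without). Over all alternatives the counts of genes called were 0 to 273 in kidney, 17 to 2248 in heart (2248 without KO heart c), 0 to 1491 for the heart minus kidney change, 3160 to 11078 (9719) for heart against kidney in KO and 9742 to 12002 (11587) in WT. Median scaling moved the median of all genes in heart to -0.23.

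Vsig4 in KO kidneys, Cd163 in KO kidney c and the second Adgre1 and Itgam probes in kidney were at or near background, so their sizes are bounds or rest on dim signal. The design gives separate mice for each genotype, but Xist and Y-linked signal differed within the KO groups. Slide followed genotype in heart and followed tissue within each genotype.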
